A study of Mus musculus with 6 samples.

Results

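The unfolded protein response and quality control of the endoplasmic reticulum (ER) were examined through 39 genes, chosen by symbol from a list of ER stress sensors, chaperones, folding enzymes and ER-associated degradation (ERAD) factors. All 39 were found, each in 1 row, among the 27179 genes of the RNA-seq table, and 21154 of these genes had at least 1 read. The cells were B16F10, an established line of mouse melanoma cells labelled WT, grown in DMEM with fetal bovine serum. Of the 6 libraries, 3 came from cultures given 0.01% ozonated olive oil (OZO) and 3 from cultures given 0.01% olive oil (OLO), its precursor without ozone, in each case for 6 h. Untreated cells were not analysed here. The level used below is the authors' mean over all libraries of both treatments, so it describes how strongly each gene was expressed in these cells and not what OZO did to it. The deposited effect of OZO is the study's own comparison and was not analysed here. Values of single libraries were not analysed either, so no standard deviation between cultures can be given and no difference between genes was tested.

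Proteins that enter the secretory pathway fold in the ER with the help of chaperones and of enzymes that form and rearrange disulfide bonds. When unfolded proteins build up, 3 kinds of sensor in the ER membrane respond. IRE1 (Ern1) splices the mRNA of the transcription factor Xbp1, PERK (Eif2ak3) phosphorylates a translation initiation factor, and ATF6 is cut in the Golgi apparatus by the proteases encoded by Mbtps1 and Mbtps2. The released ATF6 fragment and the protein from spliced Xbp1 mRNA switch on chaperone and ERAD genes, and ERAD sends proteins that fail to fold back to the cytosol for destruction by the proteasome. Pigment cells make large amounts of glycosylated melanosome proteins through the same compartment.

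One sequence is the substrate of IRE1. In the reference mRNA of Xbp1, 2 loops with the letters CNGCAGC start 26 bases apart, and they are shown in capitals because IRE1 is known to cut each of them after its G at the third base.
Xbp1: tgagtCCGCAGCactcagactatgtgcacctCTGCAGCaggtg
The stretch between the cuts lies at chr11:5524279-5524304 on the plus strand of GRCm38, in exon 4 of the 5 exons of the longest annotated Xbp1 transcript, and all 26 bases are coding.
Xbp1 stretch removed by IRE1: cagcactcagactatgtgcacctctg
Its 26 bases are 8 codons and 2 bases, so its loss shifts the reading frame. A pair of these loops at this distance was found in 0.25% of 58797 protein coding transcripts, in 67 of 21901 genes. The table counts reads per gene, and the spliced and unspliced forms of Xbp1 cannot be told apart in it.

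A further set of sequences is shown because it is a known target of the ATF6 branch. The ER stress response element (ERSE) is known as the site at which ATF6 and NF-Y act together, and it reads CCAAT, then 9 bases of any kind, then CCACG. Promoter windows of RefSeq on GRCm38.p6, from 250 bases before to 50 bases after the transcript start, were given for 34 of the 39 genes and searched on both strands. The exact letters were found in 9 of the 34 genes (26.5%), whereas 37 of all 27025 genes with a window (0.137%) held them. The 37 include these 9. The 39 genes were listed for known roles in this response, so the 2 shares are a description and not a test. Each element is printed along the strand of its gene with CCAAT and CCACG, or their reverse complements, in capitals.
Hspa5: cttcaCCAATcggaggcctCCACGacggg
Hsp90b1, far element: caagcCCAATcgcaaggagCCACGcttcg
Hsp90b1, near element: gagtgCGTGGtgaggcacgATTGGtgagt
Canx: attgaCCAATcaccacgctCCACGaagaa
Dnajc3: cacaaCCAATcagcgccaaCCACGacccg
Creld2: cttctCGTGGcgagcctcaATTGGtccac
Pdia6: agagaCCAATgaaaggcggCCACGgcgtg
Ero1b: ggcctCGTGGtcccgcctcATTGGccgcc
Syvn1: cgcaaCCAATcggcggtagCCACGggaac
Derl3: tctacCGTGGgacttccccATTGGctagc
Among genes with a window, 5 of 9 chaperones, 2 of 7 folding oxidoreductases and 2 of 8 ERAD genes held the element. The letters were not in the windows of the 7 sensor, protease and transcription factor genes or of the 3 translocation and export genes that had one. Atf6, Derl1, Hyou1, Manf and Sec61a1 had no window. The related ERSE-II, which reads ATTGG, then 1 base of any kind, then CCACG, was found in Herpud1 and Dnajb11 and in 0.0444% of all genes.
Herpud1: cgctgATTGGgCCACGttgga
Dnajb11: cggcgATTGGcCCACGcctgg
The letters TGATGNAA, known as a site of ATF4 with C/EBP factors, were found in 1 of the 34 genes, Herpud1, and in 4.51% of all genes. These matches describe reference letters, and no factor was measured at them.

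The cells carried the marks of their labelled type. All 9 genes of a melanocyte lineage list averaged at least 16 CPM, the read count scaled to a common library size, from 109 CPM for Sox10 to 7052 CPM for Dct. Of 14 genes listed for keratinocytes, fibroblasts, immune cells and endothelial cells, none averaged above 3.28 CPM, and Krt5 had no read in any library. The value shared by genes without reads gave a mean scaled depth of 19641945 reads per library on the geometric scale, so 1 CPM stood for 19.6 reads per library. The depth of each library is unknown.

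As a group the 39 genes were strongly expressed. All 39 had reads, 38 (97.4%) averaged at least 1 CPM and 36 (92.3%) at least 16 CPM, whereas 56.2% of all genes with reads reached 1 CPM and 36.5% reached 16 CPM. Their median average expression was 109 CPM, and the median gene lay at the 89.4th percentile of genes with reads. That percentile is of CPM not divided by length. Levels of different genes are otherwise given after division by exon length, as log2 CPM per 1000 bases of exon, and comparisons without that division are named as such. On the scale per length the median was 4.90 for the 39 genes and 0.55 for all genes with reads, and 30 of the 39 lay above the 75th percentile. With 6 libraries pooled, counting error was at most 2.52% of the level for 38 genes and 31.9% for Derl3. That error covers the sampling of reads only and not the spread between cultures.

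**Figure D1:**
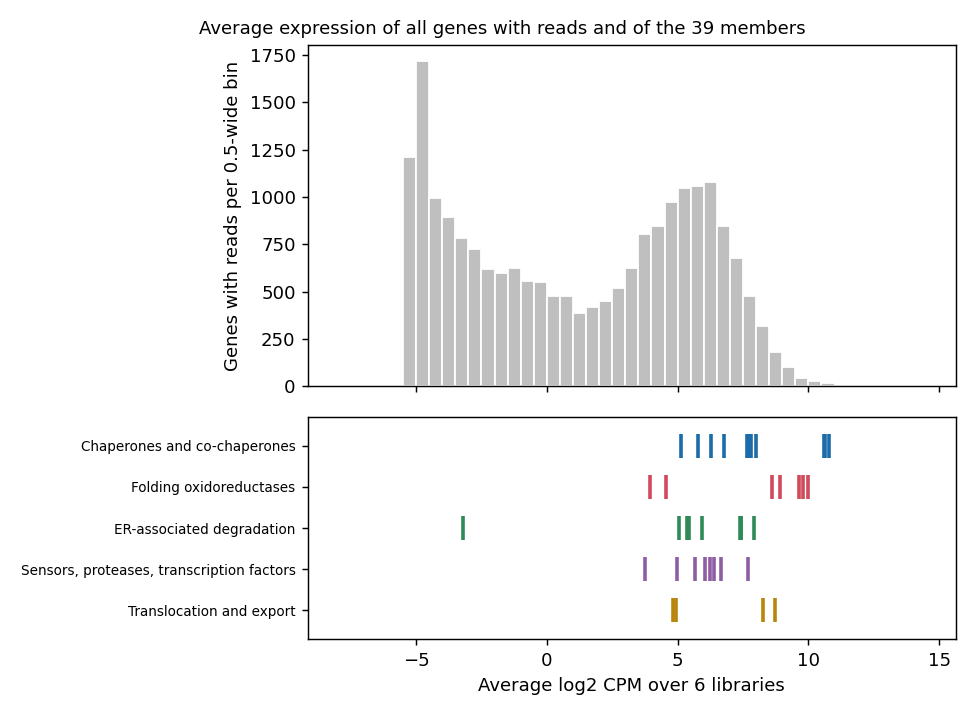
The upper panel plots how many genes with reads fall in each bin of average log2 CPM, and the lower panel marks the 39 genes on the same axis, 1 tick per gene and 1 row per role. Only Derl3, at -3.20, lies left of 0, and the other 38 genes lie at or above 3.74.

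The sensors and the factors they act through were the most weakly expressed of the 5 roles. Their 8 genes had a median of 3.37 on the log2 CPM per 1000 bases scale, with a range from 1.82 to 4.69, although without division by length the ERAD genes had the lower median, 5.93 against 6.15 in log2 CPM. Xbp1, the transcription factor made from the mRNA shown above, was the highest at 4.69 and averaged 84 CPM over both treatments. Atf6 followed at 4.49, although without division by length it stood above Xbp1 at 207 CPM, and its paralogue Atf6b, whose protein is also cut on ER stress, was at 3.49, so that the level of Atf6 was 1.99 times that of Atf6b, or 2.36 times with the longest transcript as length and 6.66 times without division by length. The kinases of the other branches lay close together, with Eif2ak3 at 3.46 and Ern1 at 3.21. Eif2ak3 was also the higher with the longest transcript as length, and without division by length Ern1 was, at 75.8 CPM against 66.4 CPM. The paralogue of Ern1, Ern2, known from gut and airway epithelium, had no read in any library, which allows up to 0.0255 CPM. The proteases that release ATF6 were at 3.28 for Mbtps1 and at 2.33 for Mbtps2, and 28.4% of the exon bases of Mbtps2 are shared with Yy2 on the same strand, so its count is uncertain. Wfs1, a membrane protein that restrains ATF6 signalling, was the lowest of the role at 1.82 and 13.4 CPM.

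Chaperones fell into a high set of 3 genes and a lower set of 8. Hspa5, the ER Hsp70 known as BiP, was the highest of all 39 genes at 8.70 on the log2 CPM per 1000 bases scale and averaged 1757 CPM. Hsp90b1, the ER Hsp90 known as GRP94, reached 8.58 and Canx, the lectin chaperone calnexin, 8.42. All of these lay at or above the 99.7th percentile of genes with reads and length. The next chaperone was Dnajb11, a J-domain partner of BiP, at 5.95. Below it the remaining 7 genes spanned 4.94 to 5.44. Without division by length these 7 genes spread more widely, from 34.6 CPM (Sdf2l1) to 256 CPM (Hyou1), and Hyou1, Dnajc3 and Dnajc10 then stood above Dnajb11, while the high set remained the 3 highest. On the scale per length the 7 included the J-domain proteins Dnajc3 (5.44), Dnajc10 (5.40) and Dnajb9 (4.94), of which Dnajc10 is also a disulfide reductase and Dnajb9 is known to restrain IRE1. Creld2 and Manf, small proteins induced by ER stress, were at 5.34 and 4.95, and Sdf2l1, a partner of Dnajb11, was at 4.96. Hyou1, the nucleotide exchange factor that resets BiP, was at 5.15, so that the level of Hspa5 was 11.7 times that of Hyou1, or 9.19 times with the longest transcript as length and 6.85 times without division by length. The values of Sdf2l1, Manf and Dnajb9 lay within their counting error of each other, and their order carries no meaning. The 3 highest chaperones were also 3 of the 5 with an exact ERSE.

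**Figure D2:**
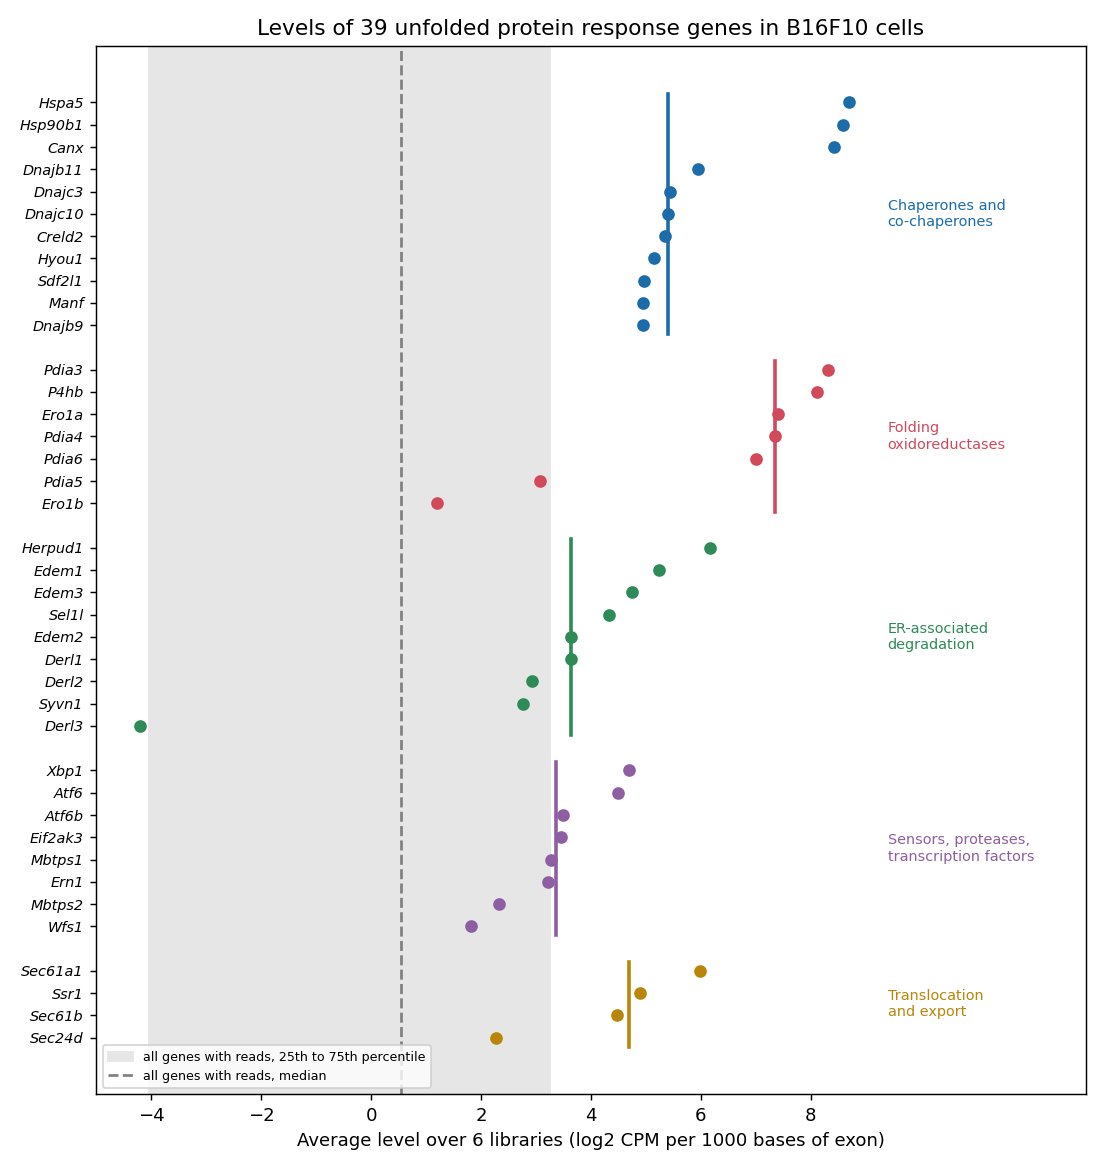
Each point is 1 of the 39 genes, placed by its average level over 6 libraries on the axis of log2 CPM per 1000 bases of exon and grouped by role. Coloured lines give the median of each role, from 3.37 for sensors to 7.35 for folding oxidoreductases, and the grey band and dashed line give the quartiles and the median (0.55) of all genes with reads.

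Folding oxidoreductases had the highest median of the 5 roles, 7.35 over the 7 listed genes. The further folding and glycan control genes described below, which include other oxidoreductases such as Tmx2 (6.45) and Qsox1 (0.85), had a median of 4.09. Of the 7 listed genes, 5 were at high levels and 2 far below them. Pdia3, which works with calnexin on glycoproteins, was at 8.32 and P4hb, the founding protein disulfide isomerase and a subunit of collagen prolyl hydroxylase, at 8.12. Pdia4 and Pdia6, further isomerases, followed at 163 and 128 CPM per 1000 bases of exon, which for Pdia4 is 7.35 on the log2 scale. Pdia6 was the higher of this pair with the longest transcript as length (7.78) and without division by length (479 against 391 CPM), so their order is not settled. Ero1a, the oxidase that recharges the isomerases, was at 7.40 and averaged 891 CPM, above P4hb (796 CPM) without division by length, whereas Ero1b, its paralogue known from pancreas, was at 1.20 and 15.3 CPM. The level of Ero1a was therefore 73.3 times that of Ero1b, or 55.8 times with the longest transcript as length. Pdia5 stood apart from the other isomerases at 3.07. Ero1b held an exact ERSE and Ero1a did not, so the letters did not follow the level within this pair.

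ERAD genes had a median of 3.64 and the greatest range of any role, from -4.20 to 6.16. Herpud1, a ubiquitin-like protein of the ER membrane that organises the degradation complex, was the highest at 6.16 and averaged 167 CPM. Without division by length Edem1 (242 CPM), Edem3 (172 CPM) and Sel1l (171 CPM) were higher. The mannosidase-like proteins that mark glycoproteins for removal were at 5.23 for Edem1, 4.75 for Edem3 and 3.64 for Edem2. Sel1l, the adaptor of the ubiquitin ligase HRD1, was at 4.32, and Syvn1, which encodes HRD1 itself, was at 2.76, so that Syvn1 had 0.339 times the level of Sel1l, or 0.297 times with the longest transcript as length and 0.192 times without division by length. Among the derlins, membrane proteins of the exit channel, Derl1 was at 3.64 and Derl2 at 2.92. With the longest transcript as length Derl1 was at 3.71 and Derl2 at 3.80, so the order of this pair is not settled. Derl3 was the lowest of the 39 genes, at -4.20 and 0.109 CPM, which is 1.6 reads per library.

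Genes that move proteins into or out of the ER were at intermediate levels, with a median of 4.68 over 4 genes. Sec61a1, the pore of the translocon, was at 5.98, and Sec61b, a small subunit of the same channel, was at 4.47. Ssr1, a subunit of the translocon-associated protein complex, was at 4.90, and Sec24d, a cargo adaptor of the vesicles that leave the ER, was at 2.27. Sec24d alone among the 34 genes with a window (2.94%) held TGACGTGG, the core letters known to bind XBP1 and ATF6. These letters were held by 0.714% of all genes.
Sec24d: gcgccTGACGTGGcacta

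A few genes made up most of the summed level. Of the sum of CPM per 1000 bases over the 39 genes, Hspa5 and Hsp90b1 together took 27.1%, Canx 11.7%, Pdia3 10.9% and P4hb 9.47%, and these 5 genes together took 59.2%. With Ero1a, Pdia4 and Pdia6 the share came to 74.8%. By role, the 11 chaperones took 49.6% of the sum, the 7 folding oxidoreductases 36.3% and the 9 ERAD genes 6.65%. The 4 translocation and export genes took 4.08% and the 8 genes of the sensor role 3.34%. These shares depend on how many genes were listed for each role. The same 8 genes led when the longest transcript was used as length, and 7 of them did without division by length, where Sec61a1 (425 CPM) stood above Pdia4 (391 CPM).

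**Figure D3:**
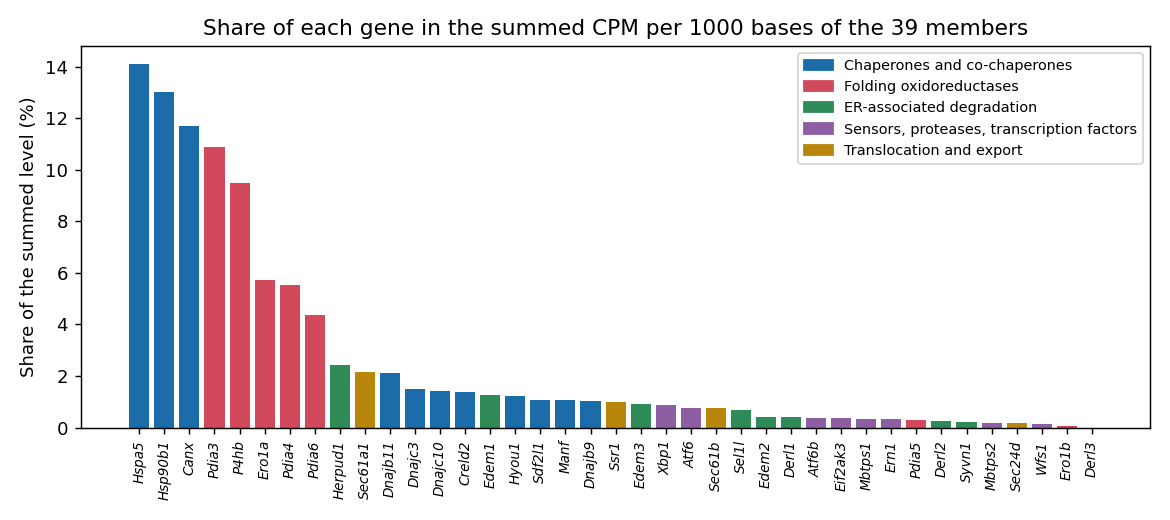
Bars give the share of each of the 39 genes in their summed CPM per 1000 bases of exon, in percent, ordered by size and coloured by role. The first 8 bars are 3 chaperones and 5 folding oxidoreductases and add up to 74.8%.

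The element shown above occurred at both ends of the order of levels. Its centre lay from 35 bases (Syvn1) to 203 bases (the far element of Hsp90b1) before the start. The 9 genes with exact letters ranked 1, 2, 3, 8, 12, 14, 34, 38 and 39 of 39 by level per length, and their median was 5.44, with a range from -4.20 to 8.70. The 25 genes with a window but without exact letters had a median of 4.69 and a range from 1.82 to 8.32. With 1 mismatch allowed among the 10 fixed letters, 14 of 34 genes (41.2%) and 1.72% of all genes held the element, and the genes added were Pdia3, Pdia4, Herpud1, Sel1l and Derl2. By role these were 5 of 9 chaperones, 4 of 7 folding oxidoreductases and 5 of 8 ERAD genes, so the higher share of chaperones among exact matches was no longer seen, and the sensors still held none. Canx and Derl3 are given in full over the 250 bases before the start because they combine the element with one of the highest levels and with the lowest. The window of Canx is at chr11:50325674-50325923 on the minus strand and that of Derl3 at chr10:75893148-75893397 on the plus strand of GRCm38.p6, with the element in capitals.
Canx: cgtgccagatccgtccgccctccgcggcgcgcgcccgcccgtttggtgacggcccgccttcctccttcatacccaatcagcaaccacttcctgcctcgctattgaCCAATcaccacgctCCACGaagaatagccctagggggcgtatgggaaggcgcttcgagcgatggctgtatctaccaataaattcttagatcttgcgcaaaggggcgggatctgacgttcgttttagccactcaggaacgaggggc
Derl3: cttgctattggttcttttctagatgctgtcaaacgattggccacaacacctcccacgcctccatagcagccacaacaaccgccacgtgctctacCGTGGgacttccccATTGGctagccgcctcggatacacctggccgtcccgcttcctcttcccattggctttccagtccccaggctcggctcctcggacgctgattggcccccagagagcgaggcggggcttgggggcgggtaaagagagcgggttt

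**Figure D4:**
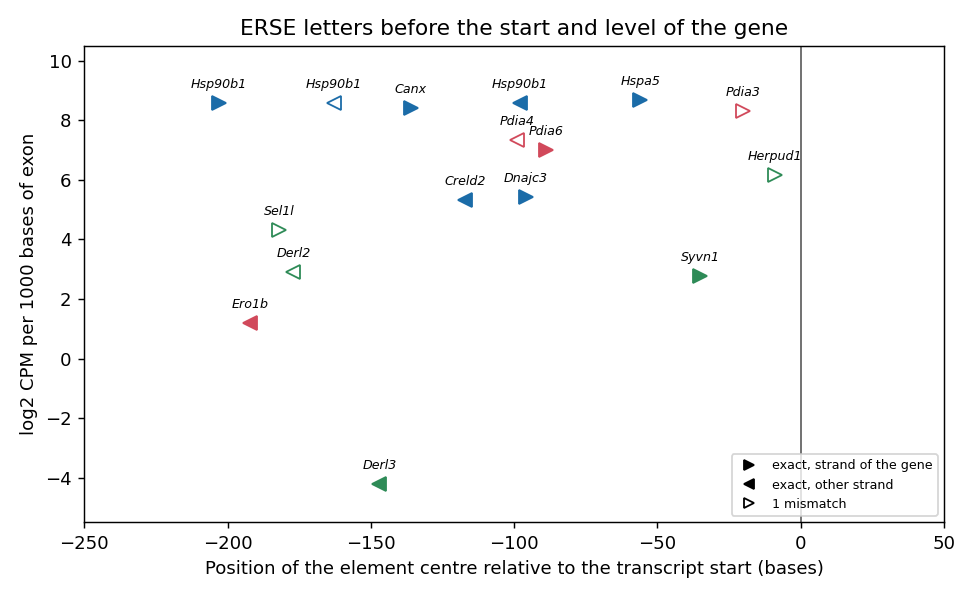
Each triangle is an ERSE match, placed by the distance of its centre from the transcript start (bases) and by the level of its gene (log2 CPM per 1000 bases of exon). Filled triangles are exact and open ones have 1 mismatch, triangles that point right lie on the strand of the gene, and exact matches run from Hspa5 at 8.70 down to Derl3 at -4.20.

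The wider pathway was described through 4 further lists, of which 91 symbols were in the table. Their median was 4.11 on the log2 CPM per 1000 bases scale, and 86 of the 91 averaged at least 1 CPM. Among folding and glycan control genes, Calr, the soluble counterpart of calnexin, was the highest at 8.31, and the isomerase Pdia2 had no read. Vcp, the ATPase that pulls ERAD clients from the membrane, was the highest of the further ERAD genes at 6.92, and Sel1l3 was the lowest at -6.93. Atf4, the transcription factor translated when PERK is active, was the highest of the further stress genes at 7.26, above each of the 8 sensor genes. With the longest transcript as length Ddit3 was above Atf4 (7.86 against 7.48). Without division by length Ppp1r15b was above Atf4 (522 against 360 CPM), so the highest gene of this list is not settled. In the translocon and export list Ssr3 was the highest at 7.66 and Sec24a the lowest at 2.75. Without division by length Sec61g was the lowest of this list at 38.4 CPM, and Sec24a was at 71.9 CPM. An exact ERSE was found in 1 of 22 further folding genes and in none of the 18 ERAD, 14 stress and 16 translocon and export genes with a window. With 1 mismatch allowed it was found in 4 of the 22, 2 of the 18, 1 of the 14 and 1 of the 16, against 1.72% of all genes. The letters TGACGTGG were found in 3 of the 22 folding, 2 of the 18 ERAD and 1 of the 16 translocon and export genes, and in none of the stress genes.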

How the data were processed

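RNA of 6 B16F10 libraries was sequenced. According to the methods and the submitters' processing notes, the authors aligned reads to mm10 with HISAT2 2.1.0, counted them with featureCounts 2.1.1 and used limma-voom from limma 3.58.1. Strand setting and annotation of the counting are not given in the sources used here. The deposited table holds an average log2 CPM per gene over all libraries, which was used, and the authors' own comparison of OZO with OLO (log2 fold changes, moderated statistics, p-values and log odds), which was not used. No count or value of a single library was analysed, so the tests planned for such values were not run.

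The average includes the 0.5 reads that voom adds. Average CPM is 2 to the power of the deposited log2 value. Reads per library, and counting error as 1 over the square root of the reads in 6 libraries, follow from the value shared by the 6025 genes without reads. These errors and floors cover counting error only, and a count of 0 was taken to allow 3 counts over all libraries. Exon length was the summed length of all exons in GENCODE M21 (GRCm38, the build named mm10), found for 23906 of 24126 Ensembl identifiers. Exons of 11 members overlap another annotated gene. Promoters are from RefSeq. Every member is named. Of the 4 further lists the highest and lowest gene and those without a read are named, with a few others for comparison. Of 95 symbols in these lists 91 were found. The others, March6, Ufd1l, Vimp and Selk, are older names of Marchf6, Ufd1, Selenos and Selenok, which were found. Members and lists were chosen with earlier results of these data known. Scripts were tested on simulated data. Python 3.11.15, pandas 2.3.3, numpy 2.4.6 and matplotlib 3.10.9 were used.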

Additional observations from a re-analysis of the deposited data

How the results depend on the processing

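Levels between genes depend on the length they are divided by. With the longest annotated transcript the median log2 level rose to 7.66 for folding oxidoreductases, 5.70 for chaperones, 5.17 for translocation and export, 4.24 for ERAD and 3.74 for sensors, and the order of the 5 roles was the same as with all exons. Without scaling by length the medians were 8.90, 7.72, 6.61, 5.93 and 6.15, so sensors then stood above ERAD. The median percentile of the 39 genes was 91.8 among all genes of the table and 87.3 among protein coding genes with reads, in place of 89.4. With 1 mismatch allowed, 14 genes held the ERSE in place of 9. A limit of 16 CPM left 36 genes in place of 38. No paired analysis was possible because values of single libraries were not analysed. For the same reason another test, normalization or pseudocount, and leaving out each library, were not run. The planned longer promoter window was not run because the sequences used hold 250 bases before the start.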
